A study of Mus musculus with 8 samples.

Results

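Dppa2, Dppa3, Dppa4 and Dppa5a are the developmental pluripotency-associated genes of the mouse, named for their expression in pluripotent cells, and they were followed here in embryonic stem cells lacking METTL5. The 4 genes were taken by symbol from tables of 23845 genes, and all 4 were present in each table. A further symbol of the same name, Dppa1, was listed at 0 in all 8 libraries. The groups were METTL5 KO Ribo-seq, WT Ribo-seq, METTL5 KO RNA-seq and WT RNA-seq, with 2 libraries each, all from mouse embryonic stem cells (mESC) at passages 5 to 10. METTL5 is the enzyme that places N6-methyladenosine on 18S ribosomal RNA. Ribo-seq counts the mRNA fragments protected by ribosomes (footprints), here from the single-ribosome fraction of a sucrose gradient, and RNA-seq started from total RNA. Libraries of both kinds were made with a kit for small RNA. The labels call the cells METTL5 KO and do not name the lesion, the parental line or the number of clones. The deposited names of the 4 KO tables share 1 tag, and those of the footprint tables share 1 tag per replicate number. The tags of the footprint tables look like a calendar day, the same for KO and WT of 1 number, and no label says what they mark.

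DPPA2 and DPPA4 are DNA-binding proteins with a SAP domain that act as a pair. In mouse embryonic stem cells they are needed to switch on Dux and the genes of the two-cell-like state, and they sit at bivalent promoters, which carry an activating and a repressive histone mark together. DPPA3, also called STELLA or PGC7, is a maternal factor that protects DNA from demethylation in the zygote, keeps UHRF1 away from chromatin and marks primordial germ cells. DPPA5A, also called ESG1, carries a KH domain, a fold that binds RNA. Dppa3 and Dppa5a are used as marks of the naive state of pluripotency.

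The footprint libraries held 8401463 to 11487964 counts and the RNA-seq libraries 152195 to 219567 counts. In a single library 3 counts, the upper limit that a count of 0 allows, corresponded to 0.261 to 0.357 CPM (counts scaled to the library total) of footprints and to 13.7 to 19.7 CPM of RNA-seq reads, for counting error alone. Footprints on Mettl5 averaged 4.43 ± 0.504 CPM in KO and 43.6 ± 3.37 CPM in WT (SD, n = 2 each; log2 fold change -3.27, edgeR adjusted p = 0.00131). The stem cell factors Pou5f1, Sox2 and Nanog were read in every footprint library, Pou5f1 at 824 ± 100.04 CPM in KO and 674 ± 53.9 CPM in WT. RNA-seq counts on Mettl5 averaged 287 ± 43.1 CPM in KO and 499 ± 144 CPM in WT (-0.88, edgeR adjusted p = 0.126). The labels do not say whether the replicates are separate cultures, and the p-values describe the spread among the libraries only, which may be technical.

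The 4 genes lie at 3 places of the mouse genome (GENCODE M21, GRCm38, the assembly behind mm10). Dppa4 (ENSMUSG00000058550) lies on chromosome 16 from 48283733 to 48294237 and Dppa2 (ENSMUSG00000072419) from 48303908 to 48319723, both on the plus strand and 9670 bp apart. Dppa3 (ENSMUSG00000046323) lies on the plus strand of chromosome 6 from 122626410 to 122630272, between Gdf3 and Nanog. Dppa5a (ENSMUSG00000060461) spans positions 78367052 to 78368177 of chromosome 9, minus strand, 7931 bp from Ooep, a KH-domain gene of the oocyte. No annotated gene overlaps any of the 4. All 4 are short, with coding regions of 903 bp (Dppa2), 888 bp (Dppa4), 450 bp (Dppa3) and 354 bp (Dppa5a).

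Much of each coding region is repeated elsewhere in the annotation, which limits how far a short footprint can be placed. Of the 28-base windows inside the coding region, 92.2% for Dppa2, 76.4% for Dppa4, 64.5% for Dppa3 and 81.7% for Dppa5a also occur in an annotated transcript of another gene, such as Dppa3-ps for Dppa3. For Dppa2, Dppa4 and Dppa3, 0 coding windows were shared with another gene listed in the tables. For Dppa5a, 48.0% of coding windows were shared with genes of the tables, namely Pigp and Gm6083. Over the whole transcript Pigp shared 149 windows with Dppa5a and Gm6083 shared 141. Footprints on Pigp stood at 7.92 ± 0.433 CPM in KO and 7.55 ± 0.484 CPM in WT (SD, n = 2 each), far below Dppa5a. The level of Gm6083 was not examined. The tables therefore give the reads assigned to each symbol, and reads of a transcribed copy cannot be told apart from those of the gene.

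Per length, Dppa5a stood far above the other 3 in every footprint library. In deposited TPM, which is scaled by transcript length, Dppa5a had 7454 and 8579 in KO and 4412 and 7755 in WT. It ranked 8th and 5th of 23845 genes in the KO libraries and 22nd and 7th in the WT libraries, and it made up 96.4% to 96.5% of the TPM of the 4 genes in KO and 91.0% to 93.4% in WT. Dppa4 averaged 136 ± 1.71 TPM in KO and 187 ± 8.41 TPM in WT, and Dppa3 averaged 116 ± 39.3 TPM in KO and 240.1 ± 73.8 TPM in WT (SD, n = 2 each). Dppa2 was lowest, at 43.9 ± 1.29 TPM in KO and 62.6 ± 3.34 TPM in WT. The libraries of Dppa3 and Dppa4 overlapped in KO, where neither gene was above the other beyond its spread. In WT, Dppa3 was above Dppa4 in both libraries, by a small margin in replicate 1 (188 against 181 TPM). Dppa2 was below both in every library, and the order was the same when footprint CPM was divided by the coding length.

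Footprint levels of Dppa2, Dppa4 and Dppa3 were lower in both KO libraries than in either WT library, and none of the 4 genes passed edgeR's test across all genes. Dppa2 had 55.9 and 51.8 CPM in KO, against 80.0 and 72.5 CPM in WT. Dppa4 had 134 and 127 CPM in KO, against 174 and 181 CPM in WT. In both genes the KO libraries lay close together and below the WT libraries, with no overlap.

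**Figure D1:**
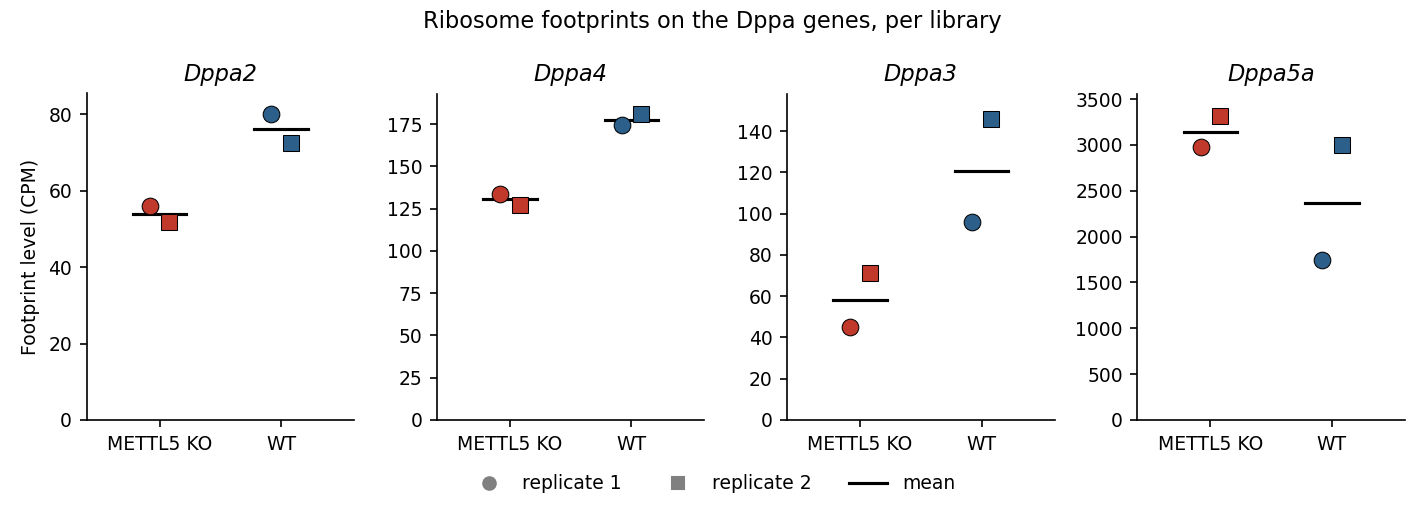
Footprint level in CPM (y axes, each from 0) of Dppa2, Dppa4, Dppa3 and Dppa5a in METTL5 KO (red) and WT (blue) libraries, with replicate 1 as circles, replicate 2 as squares and the mean of 2 as a line. The KO libraries of Dppa2, Dppa4 and Dppa3 lie below their WT libraries, and those of Dppa5a, 2979 and 3313 CPM, overlap with WT, 1743 and 2994 CPM.

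The log2 fold change of Dppa2 was -0.49 (SE 0.16, 95% interval -0.85 to -0.13, unadjusted p = 0.0125, edgeR adjusted p = 0.142). That of Dppa4, its partner, was -0.43 (SE 0.14, 95% interval -0.75 to -0.11, unadjusted p = 0.0137, edgeR adjusted p = 0.147). Of the 12315 genes tested, 2.44% passed the adjusted threshold of 0.05 (225 higher and 76 lower in KO), and 0 of the 4 Dppa genes did. At an unadjusted p below 0.05 there were 2387 genes, 19.4% of those tested, Dppa2, Dppa4 and Dppa3 among them. Both KO libraries were below both WT libraries for 25.5% of the tested genes, so the lack of overlap in 3 of 4 members is read against that share; for 24.3% both KO libraries were above both WT libraries, and for 0 of the 4. With the replicate number as a block all 4 passed, in a fit that called 24% of the tested genes; that fit would be the paired one if the shared tags mark a shared day. A log2 fold change as low as that of Dppa2 was reached by 9.91% of the tested genes, and one as low as that of Dppa4 by 12.3%.

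Dppa2 and Dppa4 had nearly the same profile over the 4 footprint libraries. The TPM ratio of Dppa4 to Dppa2 was 3.06 and 3.14 in KO and 2.79 and 3.21 in WT, so the KO values lay inside the WT range. Differences between libraries of the same number, KO minus WT, were taken on log2(CPM + 0.5), with CPM rescaled by edgeR's TMM factors. They were -0.55 and -0.42 for Dppa2 and -0.41 and -0.45 for Dppa4. With each profile centred on its mean, the root mean square difference between the 2 genes was 0.0755 on the log2 scale, and 2.15% of the other 9253 genes compared were closer to Dppa2 than Dppa4 was.

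Dppa3 had the lowest fold change of the 4 genes, with wide spread between replicates. It had 45.3 and 71.5 CPM in KO, against 95.8 and 146 CPM in WT. In both genotypes replicate 2 was the higher library, and the higher KO library stayed below the lower WT library. The log2 fold change was -1.02 (SE 0.28, 95% interval -1.67 to -0.37, unadjusted p = 0.00659, edgeR adjusted p = 0.107), a 2.03-fold difference that did not pass the test. Between libraries of the same number the difference was -1.11 and -0.96, while replicate 2 stood above replicate 1 by 0.75 in KO and by 0.60 in WT. All of these are on log2(CPM + 0.5) with CPM rescaled by the TMM factors. Of the tested genes, 1.91% had a fold change as low.

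The call on Dppa3 hung on the test and on single libraries. DESeq2 called it (log2 fold change -1.03, adjusted p = 0.0132), in a test that called 3.04% of genes. With edgeR it passed without KO replicate 2 (-1.45, adjusted p = 0.00854) and without WT replicate 1 (-1.29, adjusted p = 0.00271), and did not pass without KO replicate 1 (-0.70, adjusted p = 0.305) or WT replicate 2 (-0.70, adjusted p = 0.187). The direction was the same in each.

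Dppa5a stood higher in KO on average, with overlapping groups. It had 2979 and 3313 CPM in KO, against 1743 and 2994 CPM in WT, so the second WT library was level with the KO libraries. The log2 fold change was 0.43 (SE 0.25, 95% interval -0.14 to 0.995, unadjusted p = 0.124, edgeR adjusted p = 0.402). The value rested on WT replicate 1. Without it the log2 fold change was 0.0923 (adjusted p = 0.858), and without WT replicate 2 it was 0.86 and passed (adjusted p = 0.0216). Without KO replicate 1 it was 0.54, and without KO replicate 2 it was 0.30. Between libraries of the same number the difference was 0.74 and 0.21, on log2(CPM + 0.5) with CPM rescaled by the TMM factors.

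**Figure D2:**
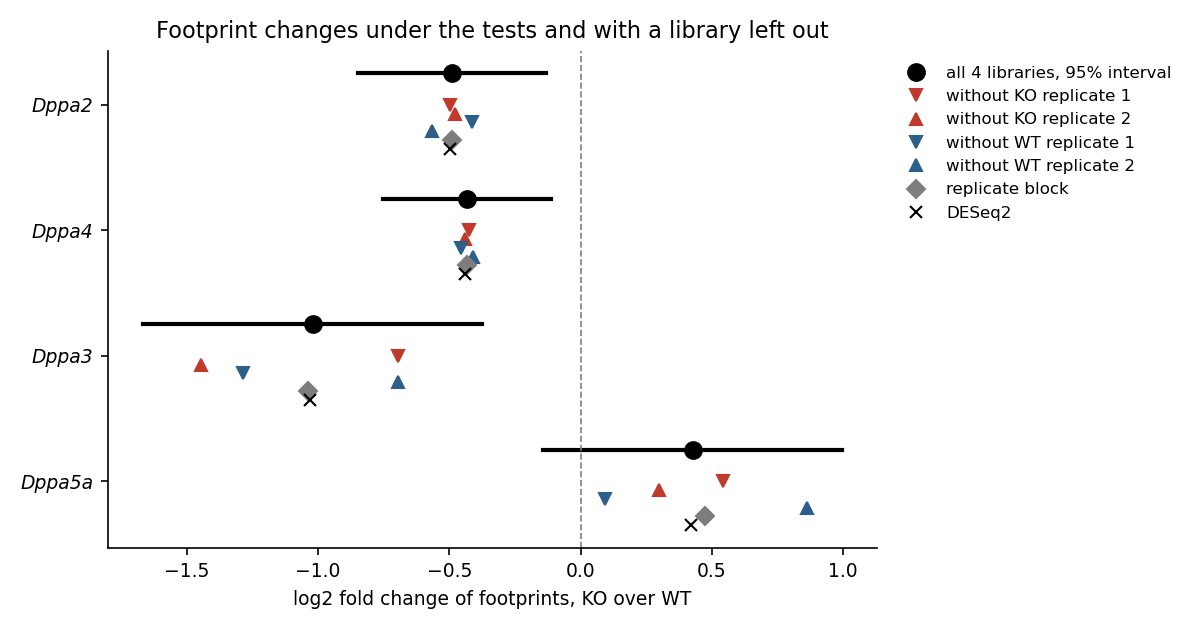
Log2 fold change of footprints, KO over WT (x axis), for the 4 genes (rows), with all 4 libraries and its 95% interval in black, with each library left out (triangles), with the replicate number as a block (grey) and with DESeq2 (cross). Dppa2 and Dppa4 stay between -0.57 and -0.41, while Dppa3 ranges from -1.45 to -0.70 and Dppa5a from 0.0923 to 0.86.

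Set against each other within a library, which removes the scaling between libraries, Dppa5a and Dppa3 stood farther apart in KO. The TPM ratio of Dppa5a to Dppa3 was 85.0 and 59.8 in KO and 23.5 and 26.5 in WT, a mean ratio 2.90 times higher in KO with no overlap. The ratio of Dppa5a to Dppa4 was 54.2 and 63.5 in KO and 24.4 and 40.2 in WT, also with no overlap. The ratio of Dppa3 to Dppa4 was 0.638 and 1.06 in KO and 1.04 and 1.51 in WT, where the groups overlapped. With 2 libraries against 2, an exact two-sided permutation test of such a ratio cannot go below p = 0.333, and the ratios are given as values. Among single tested genes, 25.5% had both KO libraries below both WT libraries and 24.3% had both above. The share of gene pairs whose ratios do not overlap was not examined.

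Dppa3 lies on a chromosome whose footprints were lower in KO as a whole. The median log2 fold change of the 541 tested genes of chromosome 6 was -0.38, against 0.07 for the 352 genes of chromosome 16 and 0.03 for the 678 genes of chromosome 9. Relative to these medians Dppa3 stood at -0.64, Dppa2 at -0.56, Dppa4 at -0.51 and Dppa5a at 0.40. Of the tested genes of chromosome 6, 4.81% were as low as Dppa3, against 6.25% and 8.24% of those of chromosome 16 for Dppa2 and Dppa4. How far the chromosome accounts for Dppa3 was not tested.

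Neighbouring genes did not all share these values. Gdf3, a TGF-beta family ligand next to Dppa3, had 105 and 91.9 CPM in KO and 164 and 99.6 CPM in WT (log2 fold change -0.41, edgeR adjusted p = 0.361). Beyond it lies Apobec1, a cytidine deaminase, with -0.54 (adjusted p = 0.439). On the other side of Dppa3, Nanog had 339 and 386 CPM in KO and 283 and 443 CPM in WT (0.01, adjusted p = 0.980), and the glucose transporter gene Slc2a3 had 0.16 (adjusted p = 0.723). Within 5 Mb of Dppa3, 69 of 80 tested genes had negative values (median -0.40) and 2 were lower than Dppa3. That is near the chromosome as a whole, where 83.4% of the 541 tested genes had negative values (median -0.38).

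Around the other members the values were mixed. Ooep, next to Dppa5a, had 125 and 145 CPM in KO and 57.5 and 113 CPM in WT (log2 fold change 0.68, edgeR adjusted p = 0.260), while the RNA helicase gene Ddx43 had -0.45, Gsta4, of glutathione conjugation, 0.13 and the kinase gene Ick -0.02. Past Dppa2, the germline gene Morc1 had 68.0 and 95.7 CPM in KO and 73.6 and 105 CPM in WT (-0.11, adjusted p = 0.856), and Dzip3 had -0.52 (adjusted p = 0.448). On the far side of Dppa4 the nearest tested genes, Plcxd2 (-0.44) and Phldb2 (0.91), lay 2274 and 2330 kb away, and neither passed the test.

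**Figure D3:**
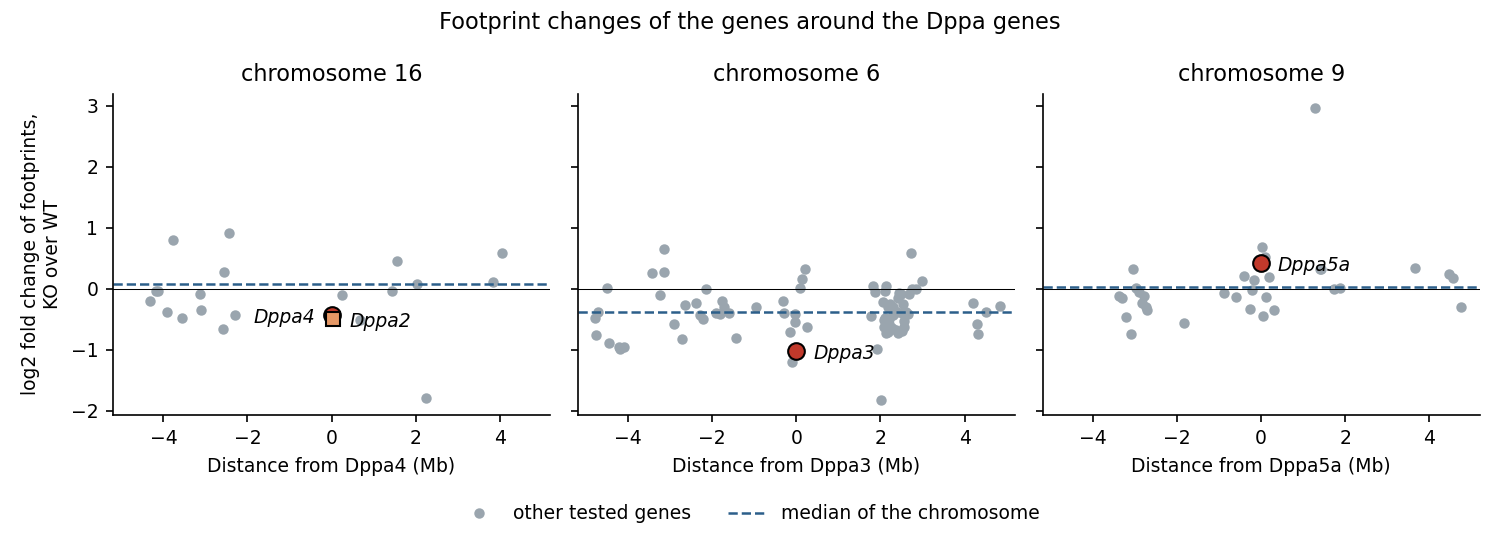
Log2 fold change of footprints, KO over WT (y axis), of tested genes within 5 Mb of Dppa4 and Dppa2, of Dppa3 and of Dppa5a, against the distance in Mb from the named gene (x axes). The dashed line is the median of the chromosome, 0.07 for chromosome 16, -0.38 for chromosome 6 and 0.03 for chromosome 9.

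In the RNA-seq tables only Dppa5a had enough counts for a test. Dppa3 was at 0 in all 4 libraries. Dppa4 had 0 and 0 counts in KO and 0 and 2 in WT, and Dppa2 had 1 and 0 counts in KO and 2 and 1 in WT. All of these are at or below the limit of 3 counts that a count of 0 allows in a library, so a difference was not detectable at this depth and no translational efficiency could be given for these 3 genes. Fewer footprints on them can therefore not be assigned to less mRNA or to fewer ribosomes per mRNA.

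Dppa5a had fewer RNA-seq counts in KO, opposite to its footprints. It had 2 and 5.87 expected counts in KO, against 23 and 13.7 in WT, which are 13.1 and 33.9 CPM in KO and 109 and 62.2 CPM in WT. The groups did not overlap, as for 21.7% of the 2087 tested RNA-seq genes, which had both KO libraries below both WT libraries. The log2 fold change was -1.89 (SE 0.67, 95% interval -3.36 to -0.42, edgeR adjusted p = 0.120) and did not pass, in a comparison where 6.37% of 2087 genes did.

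Translational efficiency, footprints relative to RNA-seq counts, of Dppa5a rose in KO. The interaction of assay and genotype was 2.37 on the log2 scale (SE 0.65, 95% interval 0.96 to 3.77, edgeR adjusted p = 0.0408), and 9.12% of 1458 genes passed this test. The value rests on a total of 7.87 RNA-seq counts in KO (exact Poisson 95% interval 3.37 to 15.6, counting error only) and 36.7 in WT (25.8 to 50.6). The call was lost in 6 of 8 fits that left out 1 library, with adjusted p up to 0.185 without KO replicate 1 of RNA-seq, and kept without WT replicate 2 of either assay.

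Other abundant mRNAs also had negative values in the RNA-seq tables. Of the 75 tested genes with at least 1000 CPM of footprints, a limit chosen after the values were seen, 59 had negative RNA-seq fold changes, with a median of -0.79, against a median of 0.03 over the other 2012. Pou5f1, the core pluripotency factor, whose footprints lie below that limit, had RNA-seq levels of 21.4 ± 2.37 CPM in KO and 81.2 ± 1.09 CPM in WT (SD, n = 2 each) and a translational efficiency change of 2.35 (edgeR adjusted p = 0.0150). The elongation factor gene Eef1a1 had one of 1.32 (adjusted p = 0.0348). The part of these values in the value of Dppa5a was not tested.

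**Figure D4:**
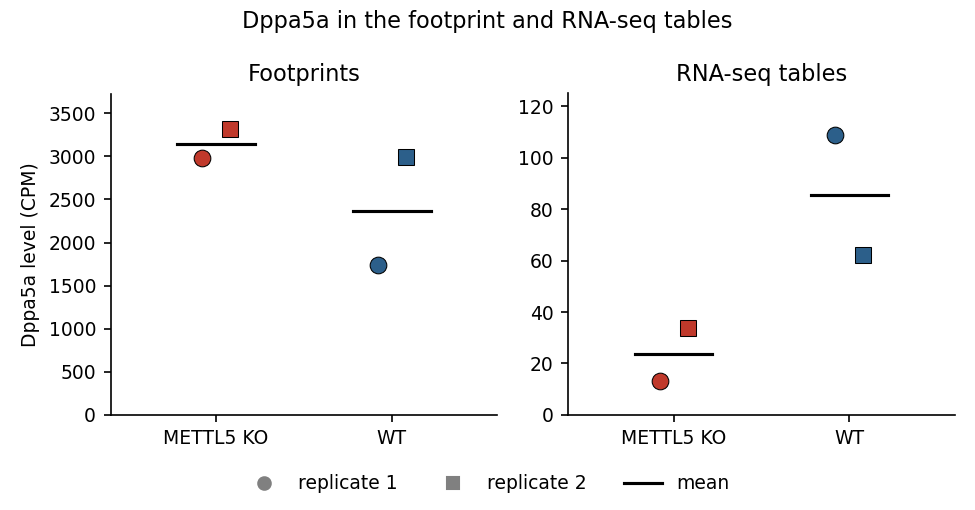
Dppa5a level in CPM (y axes, each from 0) in footprint tables and RNA-seq tables, in METTL5 KO (red) and WT (blue) libraries, with circles for replicate 1, squares for replicate 2 and lines for the mean of 2. Footprints average 3146 CPM in KO and 2369 CPM in WT, and RNA-seq averages 23.5 CPM in KO and 85.5 CPM in WT.

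Genes known to act downstream of DPPA2 and DPPA4 were barely read. Of 22 two-cell-like genes, 19 were in the tables and 2 were abundant enough to test, and none passed. Zscan4f had 11.05 and 6.003 CPM in KO and 3.69 and 5.87 CPM in WT (log2 fold change 0.84, edgeR adjusted p = 0.229), and Zscan4b had 6.09 and 1.74 CPM in KO and 1.74 and 0.387 CPM in WT (1.81, adjusted p = 0.236). The Zscan4 genes are near-identical copies, so the split of reads between them is uncertain. The summed level of the 19 genes was 28.3 and 12.5 CPM in KO and 10.9 and 9.19 CPM in WT, and KO replicate 1 was the library that stood out. Called genes were found on this list without KO replicate 2, where fewer genes were called in total. They were also found without WT replicate 1, where more genes were called in total. Dux, the factor that DPPA2 and DPPA4 switch on, was at 0.858 and 0.435 CPM in KO and 0.382 and 0.119 CPM in WT and was not tested.

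Of 14 tested regulators of the two-cell-like state none passed, and the median log2 fold change was -0.12, against 0.01 over all tested genes. With a library left out, a call on this list appeared only without WT replicate 2, where more genes were called in total. Sumo2, a SUMO protein, had the smallest p with 518 and 520 CPM in KO and 892 and 797 CPM in WT (-0.69, edgeR adjusted p = 0.0609), followed by Lin28a, an RNA-binding protein, with 0.35 (adjusted p = 0.490). Of 11 subunits of the COMPASS and Polycomb complexes found at bivalent promoters, 1 fell, as did 76 of all 12315 tested genes. This was Suz12, a core subunit of PRC2. It had 88.2 and 89.7 CPM in KO and 146 and 153 CPM in WT (-0.73, SE 0.15, edgeR adjusted p = 0.0384), and the call was lost without KO replicate 1 or without KO replicate 2, with adjusted p up to 0.222. Without WT replicate 1 the list had more called genes, as did all tested genes together. Suz12 and Sumo2 lie on chromosome 11, whose median was -0.25. The median of this list was 0.02, and it was negative with any 1 library left out (-0.0688 to -0.0027).

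Genes of DNA methylation, the pathway of DPPA3, did not pass the test. Of 10 tested, 5 had positive and 5 negative fold changes, with a median of -0.003 that ranged from -0.10 to 0.0741 with a library left out. Tet2, a 5-methylcytosine oxidase, had 90.7 and 95.4 CPM in KO and 46.6 and 69.3 CPM in WT (log2 fold change 0.70, edgeR adjusted p = 0.114), and Dnmt3b, a de novo methyltransferase, had 443 and 448 CPM in KO and 347 and 271 CPM in WT (0.54, adjusted p = 0.142). Uhrf1, the target of DPPA3, had 761 and 601 CPM in KO and 927 and 713 CPM in WT (-0.26, adjusted p = 0.495). Called genes were found among the 10 without WT replicate 1 and without WT replicate 2, where more genes were called in total.

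Of 8 tested genes of primordial germ cells, which Dppa3 also marks, Ifitm1 rose and 0 fell. Over all 12315 tested genes, 225 rose and 76 fell. Ifitm1, a membrane protein of the fragilis family, had 246 and 195 CPM in KO and 128 and 115 CPM in WT (log2 fold change 0.86, SE 0.16, edgeR adjusted p = 0.0303; 0.132 without KO replicate 1). Its relative Ifitm3, also on the list, had 282 and 287 CPM in KO and 201 and 187 CPM in WT (0.57, adjusted p = 0.0897). The list median was 0.38, and 0.25 without WT replicate 2.

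Of 4 tested genes of the KH-domain family and the maternal complex of the oocyte, 2 fell, against 76 of all 12315 tested genes. Khdc3, a KH-domain protein, had 141 and 97.8 CPM in KO and 302 and 211 CPM in WT (log2 fold change -1.10, SE 0.22, edgeR adjusted p = 0.0384; 0.0945 without KO replicate 2). Tle6, a partner in the complex, had 3.11 and 3.13 CPM in KO and 9.27 and 10.8 CPM in WT (-1.66, SE 0.26, edgeR adjusted p = 0.0180), and it was called with any 1 library left out. Ooep, given above, was higher on average and did not pass. The list median was -0.61, against -0.34 without KO replicate 1 and -1.08 at a mean count of at least 50, where Khdc3 lost its call. Fewer genes of the list were called without KO replicate 2 and more without WT replicate 2, as over all tested genes. In all footprint libraries 3 of the 9 genes were at 0.

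The wider set of embryonic stem cell associated transcripts (ECAT), under which Dppa5a, Dppa4 and Dppa2 were also named, held 9 other tested genes. Khdc3 was the only one called, against 301 of all 12315 tested genes. At a mean count of at least 50, 0 genes of the list were called. Of the 9, 7 had negative fold changes with a median of -0.23, which was -0.11 without WT replicate 2. Dnmt3l, a cofactor of de novo methylation, had 393 and 382 CPM in KO and 628 and 539 CPM in WT (-0.58, edgeR adjusted p = 0.101). L1td1, from a LINE-1 open reading frame, had -0.23 and Eras, a stem cell RAS protein, 0.09. Without WT replicate 2 the list had more called genes, as did all tested genes together.

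Of 12 other naive-state genes tested, 10 had positive values, with a median of 0.25 that was 0.0454 without KO replicate 1 and 0.40 without KO replicate 2. Tfcp2l1, a naive-state transcription factor, rose to 133 and 102 CPM in KO, against 69.3 and 70.1 CPM in WT (log2 fold change 0.76, SE 0.16, edgeR adjusted p = 0.0491), a call lost without KO replicate 1 or WT replicate 2, with adjusted p up to 0.294. Without WT replicate 1 the list had more called genes, as did all tested genes together. At a mean count of at least 50, 0 genes of the list were called. Zfp42, also called REX1, had 754 and 691 CPM in KO and 1084 and 1096 CPM in WT (-0.58, edgeR adjusted p = 0.0904). It lies on chromosome 8, whose median was -0.22. Of 9 core pluripotency genes none passed (median 0.11, and 0.0429 to 0.21 with a library left out), Pou5f1 at 0.30 (adjusted p = 0.360) and Zfp281 at -0.25 (adjusted p = 0.422) having the smallest p. Of 9 genes of the primed state, all had positive values (median 0.95, and 0.59 without WT replicate 2). Car14 (1.73, edgeR adjusted p = 0.0131) and Fgf15 (1.27, 0.0272) rose, as did 225 of all 12315 tested genes. Fgf15 lost its call without KO replicate 1. Without WT replicate 1 the list median was 1.29, in a fit that called more genes in total.

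**Figure D5:**
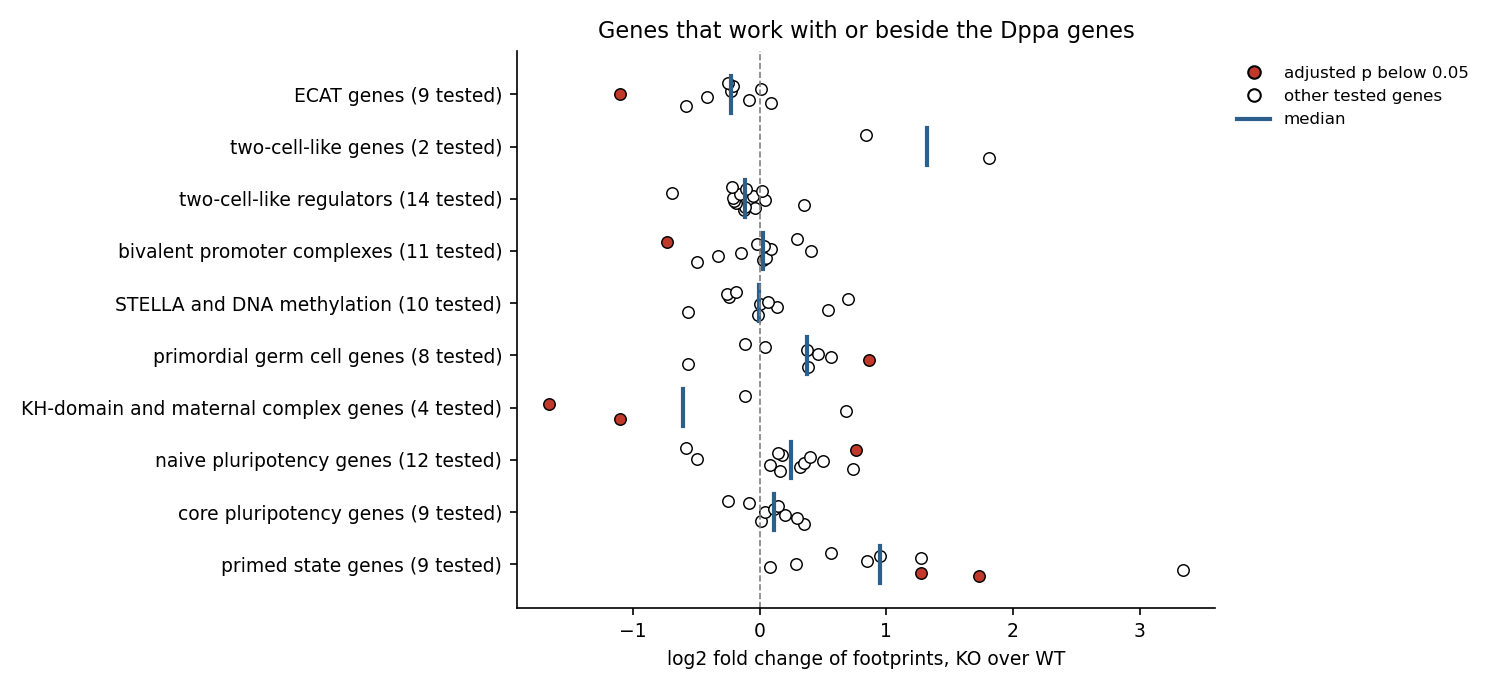
Log2 fold change of footprints, KO over WT (x axis), of the tested genes of 10 lists (rows), filled where the adjusted p was below 0.05, with the list median as a blue bar. Called genes are Khdc3 (on 2 lists), Suz12, Ifitm1, Tle6, Tfcp2l1, Fgf15 and Car14.

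Some markers of other cell types also differed between the genotypes. For comparison, 225 of all 12315 tested genes were called higher in KO and 76 lower. The 12 fibroblast markers summed to 3351 to 3431 CPM in KO and 1922 to 2216 CPM in WT, with 3 of 10 tested higher (Col5a1, Col3a1 and Tagln) and Lum at 0 in every footprint library. Most of each sum was Fn1, with 2605 and 2456 CPM in KO and 1769 and 1674 CPM in WT, which was not called (log2 fold change 0.57, edgeR adjusted p = 0.104), and Thy1 had a negative value (-0.51). The 12 primitive endoderm markers summed to 843 to 1076 CPM in KO and 1352 to 1557 CPM in WT, with 4 of 11 tested lower (Cubn, Dab2, Col4a1 and Col4a2). Col4a1 and Col4a2 lie on chromosome 8, whose median log2 fold change was -0.22. Lamb1, a large part of each sum, had 435 and 534 CPM in KO and 438 and 453 CPM in WT. Its log2 fold change of 0.14 was the only positive value among the 11. Lama1, also abundant, was not called (-0.61, edgeR adjusted p = 0.146). The 11 trophoblast markers summed to 372 to 408 CPM in KO and 146 to 151 CPM in WT, with 3 of 8 tested higher, the simple keratins Krt8, Krt18 and Krt19, which made up most of the sum. Ascl2 (-0.29) and Tfap2c (-0.11) had negative values, and Elf5 and Gata3 had 1 and 12 counts in KO and 12 and 18 in WT. Tagln and Krt19 lost their calls without KO replicate 2 (adjusted p = 0.0897 and 0.0628). More fibroblast and trophoblast markers were called without WT replicate 1, and more fibroblast markers without WT replicate 2. In both of these fits more genes were also called in total. The part of these markers in the values of the Dppa genes was not tested, and in bulk libraries fewer cells that express a gene and fewer footprints per cell cannot be told apart.

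Many genes had a profile close to that of Dppa2 or Dppa4, and few one close to that of Dppa3. Likeness was the root mean square difference between centred log2(CPM + 0.5) profiles over the 4 footprint libraries, over the 9254 genes whose counts averaged 50 or more. Within 0.1 of Dppa2 lay 405 genes and within 0.1 of Dppa4 lay 550, against 43 for Dppa5a and 2 for Dppa3. The closest to Dppa2 were Slc39a14, Txndc17 and Asf1a, and the closest to Dppa4 were Fan1, Frg1 and Hdlbp. The closest to Dppa3 were Lsm3, also on chromosome 6, at 0.0810, Cbln1 at 0.0949 and Tekt1 at 0.112. The closest to Dppa5a were Ston1, Tdrp and Pfkfb3, at 0.0259 to 0.0504. Lsm3, an RNA-binding Sm-like protein, had 63.0 and 93.3 CPM in KO and 116 and 177 CPM in WT, with replicate 2 the higher library in both genotypes, as for Dppa3.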

How the data were processed

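Footprints and RNA were sequenced from METTL5 KO and WT mESC, 2 libraries per group. The submitters' processing notes name the mm10 build, RSEM and Bowtie2 2.3.4.3, without strand or alignment settings. Each deposited table lists, per its header, expected counts for every gene symbol, which split reads shared between genes, with deposited TPM and FPKM values (FPKM not used) and lengths. CPM was computed from the expected counts and their library total. Expected counts were rounded and tested with edgeR 4.0.16 (robust glmQLFit, TMM, filterByExpr, Benjamini-Hochberg over all tested genes, threshold 0.05), apart for each assay, and as an interaction for translational efficiency. SE came from the F statistics. DESeq2 1.42.0 and limma 3.58.1 entered alternatives. Positions came from GENCODE M21, which matched 22680 of 23845 symbols.

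The genes and the 13 lists were chosen with earlier results of these data known. Named genes were the members, Mettl5, called members of each list (up to 3 by p, otherwise the 2 with the smallest p), the 2 nearest tested genes on each side and the 3 most alike; clone names were left out. Uhrf1, Dux, Eef1a1, Pigp, Gm6083, Ifitm3, Dnmt3l, L1td1, Eras, Zfp42, Sox2, Lum, Fn1, Thy1, Ascl2, Tfap2c, Elf5, Gata3, Col4a2, Lama1 and Lamb1 were added after values were seen. Libraries with the same number were not treated as pairs, since the labels do not say what a number marks. Alternatives covered the tool, the scaling, the filter, the replicate block and each library left out. Replicates differed by a chi-square per degree of freedom of 2.96 to 24.1, above sampling noise.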

Additional observations from a re-analysis of the deposited data

Results flagged for a closer look

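The footprint and RNA-seq changes of Dppa5a differed by a test of the difference itself, the interaction of assay and genotype, which was 2.37 on the log2 scale (edgeR adjusted p = 0.0408, 2 libraries per group and assay). Both KO footprint libraries were above WT replicate 1, 1 of 2 was above WT replicate 2, and both KO RNA-seq libraries were below both WT RNA-seq libraries. The RNA-seq side rests on 7.87 counts in KO and 36.7 in WT. Taken alone, neither the footprint change (edgeR adjusted p = 0.402) nor the RNA-seq change (edgeR adjusted p = 0.120) passed. The interaction test called 9.12% of 1458 genes, and the call on Dppa5a was lost in 6 of 8 fits that left out 1 library.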

How the results depend on the processing

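The footprint log2 fold changes kept their direction in all 12 alternatives run for each gene. No value crossed zero when a library was left out; the ranges were -0.57 to -0.41 for Dppa2, -0.46 to -0.41 for Dppa4, -1.45 to -0.70 for Dppa3, 0.0923 to 0.86 for Dppa5a, -2.78 to -1.35 for Dppa5a in RNA-seq and 1.81 to 3.28 for its translational efficiency. With the replicate number as a block all 4 passed (Dppa2 -0.49, adjusted p = 0.000714; Dppa4 -0.43, 0.00124; Dppa3 -1.04, 1.15e-16; Dppa5a 0.47, 0.0251), in a fit that called 2960 genes, 24% of those tested, against 301. The check of the numbers gave a correlation of 0.569 between KO and WT libraries of 1 number, taken over 9259 genes as departures from the mean of the group, a hint from the data. The day-like tags that KO and WT tables of 1 number share give the same pairing, but no label says what they mark. Dppa3 also passed with DESeq2 (-1.03) and with no filter on low counts (-1.01). With the chromosome median subtracted Dppa2 stood at -0.56 and Dppa4 at -0.51.

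The number of called footprint genes was 172 with limma on log2(TPM + 1), 186 at a mean count of at least 50 and 1110 with no filter, and 189 to 761 with a library left out. The number of called RNA-seq genes was 133, and 75 with DESeq2, 37 with limma, 76 at a mean count of at least 50 and 73 to 242 with a library left out. For translational efficiency it was 133, and 18 at a mean count of at least 50, where Dppa5a was not tested, and 15 to 111 with a library left out. Over the 13 lists 17 genes were called, and 14 to 34 with a library left out. With a pseudocount of 2, 1 of the 3 genes nearest to Dppa3 and 0 of those nearest to Dppa5a were the same. The cause of these shifts was not tested. At the RNA-seq depth, Dppa2, Dppa3 and Dppa4 could not be tested.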
